A study of Mus musculus with 2 samples.

Results

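The S100 genes encode small calcium-binding proteins, and 9 of them (S100a1, S100a4, S100a6, S100a8, S100a9, S100a10, S100a11, S100a13 and S100a16) were followed through the infarcted mouse heart, out of 15181 genes named in any table. These members were chosen by name after earlier results of these data were known, and the rows carrying those names were then taken from all 18 cluster tables and all 4 fibroblast subcluster tables. S100a8 and S100a9 are treated apart from the other 7 genes, because they mark neutrophils while the others are expressed in many cell types. Interstitial cells were freed from ventricles by Langendorff perfusion, sorted for viability, and profiled with the 10x Chromium system (V3.1 chemistry) in 2 libraries, 1 per genotype. Control cells came from PostnMCM mice, in which the Postn locus drives a tamoxifen-inducible Cre that is active in fibroblasts activated by injury. The other library came from Yapfl/fl;Wwtr1fl/+;PostnMCM mice, which carry loxP sites in both alleles of Yap1 and in 1 allele of Wwtr1. Both strains carried the R26-eGFP reporter, and both underwent myocardial infarction, ate chow with 0.4 g/kg tamoxifen for 6 days and were, per the labels, collected at day 6. How many hearts entered a library, and the age of the animals, are not given in the labels.

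S100 proteins pair up into dimers, each subunit with a pair of EF-hand loops, and calcium binding opens a surface that grips partner proteins such as annexins and myosin. Within the cell they link calcium signals to the cytoskeleton, to membrane repair and to vesicle release. Some members also leave the cell, and the S100a8 and S100a9 proteins form calprotectin, an abundant protein of the neutrophil cytosol that can signal through Tlr4 and Ager on other cells. Neutrophils enter the infarcted heart early, ahead of macrophages and activated fibroblasts.

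All 9 genes lie on mouse chromosome 3 (GRCm39) within 3.06 Mb. S100a8 (ENSMUSG00000056054.11) spans bases 90567118 to 90578128 on the plus strand, and S100a9 (ENSMUSG00000056071.14) spans 90599931 to 90603071 on the minus strand, 21.8 kb away. S100a1 (ENSMUSG00000044080.11, bases 90418340 to 90421848, minus strand) lies within the annotated span of S100a13 (ENSMUSG00000042312.13, bases 90416091 to 90431912, plus strand). The overlap is one of annotated gene spans, while their RefSeq first bases lie apart and face away from each other, and whether the counting used strand is not given in the sources used here. S100a16, S100a4 and S100a6 lie between S100a13 and S100a8, beside other S100 genes, whereas S100a11 and S100a10 stand 2998.3 and 3046.1 kb from the start of S100a13.

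**Figure D1:**
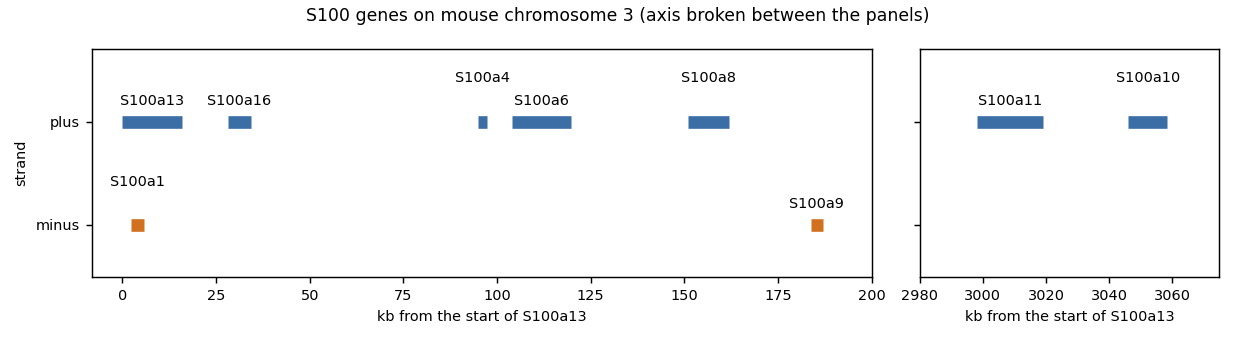
Position of the 9 S100 genes on mouse chromosome 3, in kb from the start of S100a13 (x axis, broken between the panels), by strand (y axis: plus above, minus below). Bars give each annotated gene from start to end. A total of 7 genes lie within 200 kb of that start, S100a9 beginning 183.8 kb from it, while S100a11 and S100a10 form a separate group, beginning 2998.3 kb from it.

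The windows around the transcription starts of the neutrophil genes, and that between S100a1 and S100a13, are shown because the first belong to the members with the widest differences and the last to a shared promoter region. They come from the RefSeq promoter table (250 bases before the first base to 50 after), which held 9 windows for 8 members (all but S100a10), and each window matched GRCm39 once. For S100a8 (chr3:90576128-90576427, plus strand) and S100a9 (chr3:90602979-90603278, minus strand), capitals mark matches to TATAAA and to TTNNGNAAT, a string from the sites of C/EBP factors, which act in myeloid cells. For S100a13 (chr3:90421492-90421791, plus strand), capitals mark the stretch from the first base of S100a1 to that of S100a13.
S100a8: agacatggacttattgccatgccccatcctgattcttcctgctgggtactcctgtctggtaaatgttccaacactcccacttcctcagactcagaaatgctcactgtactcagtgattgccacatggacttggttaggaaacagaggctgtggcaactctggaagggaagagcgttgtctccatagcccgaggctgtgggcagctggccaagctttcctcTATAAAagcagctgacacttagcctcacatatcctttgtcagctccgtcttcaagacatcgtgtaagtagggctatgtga
S100a9: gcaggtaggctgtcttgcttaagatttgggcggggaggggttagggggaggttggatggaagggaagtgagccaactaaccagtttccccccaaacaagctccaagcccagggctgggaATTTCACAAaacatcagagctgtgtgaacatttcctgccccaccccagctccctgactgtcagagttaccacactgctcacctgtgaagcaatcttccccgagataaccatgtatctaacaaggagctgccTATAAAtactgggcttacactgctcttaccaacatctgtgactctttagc
S100a13: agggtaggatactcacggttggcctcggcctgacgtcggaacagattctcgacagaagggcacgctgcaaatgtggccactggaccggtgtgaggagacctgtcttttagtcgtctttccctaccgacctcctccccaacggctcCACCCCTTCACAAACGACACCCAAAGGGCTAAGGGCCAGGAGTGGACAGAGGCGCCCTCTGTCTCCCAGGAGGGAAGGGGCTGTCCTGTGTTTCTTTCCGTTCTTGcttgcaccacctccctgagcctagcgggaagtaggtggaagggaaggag

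TATAAA was found in 3 of the 9 windows (S100a4, S100a8 and S100a9), and in 13.6% of all 32851 windows in the table. It starts at base 220 of the S100a4 window, base 221 of the S100a8 window and base 251 of the S100a9 window, counted from the 5′ end of each window. TTNNGNAAT was found in the S100a9 window at base 120 and in 11.5% of all windows. The core of the site bound by TEAD factors, the DNA-binding partners of Yap and Wwtr1, was searched as GGAATG, and it was in 0 of the 9 windows and in 14.7% of all windows. Each string was searched on both strands, and no matches of different strings overlapped. A match to these letters describes a window and is not a measured site. The first bases of S100a1 and S100a13 lie 105 bases apart on opposite strands, and their windows share 204 bases.

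The value followed is the share of cells of a cluster with a corrected count above 0 for a gene, as the authors' tables give it for each library, printed in percent. Differences are the library labelled depleted minus control, in percentage points, and a share is called lower or higher when it differs by at least 10 points, and below or above control at any size. With 1 library per genotype there is no replicate error, so no difference was tested, and no order between neighbouring shares can be set against a spread. A share counts cells, not transcripts per cell, and near 100% it says little about level. The cluster tables list a gene only if it reached 25% of the cells in 1 library or the other and passed the authors' limit on fold change, so that a missing gene has no value there, whereas the subcluster tables have no such limits.

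Cluster names follow the study, whose list of cell types leaves out clusters 6, 9 and 15, called unnamed here. Clusters 6 and 10 were described there as enriched for proliferation markers and read as proliferating T cells, and cluster 15 as unidentified or mixed. All 15 named clusters listed an own marker present in at least 50% of cells of both libraries. For this check 1 marker sufficed, so it says little about a name. Cluster 11 listed 8 of 10 macrophage markers, of which 1 reached 50% in both libraries. Cluster 12 listed 1 of 10, and B cells (cluster 2) listed 1 of 5. Numbers of cells, depth per cluster and cell barcodes were not analysed here, so no interval is given for a share. Distinct shares lay at least 5 points apart in 1 or both libraries of clusters 9, 10, 17 and 18 and 10 points apart in the library labelled depleted of subcluster 4, so values there are coarse. Yap1 and Wwtr1 were in 0 cluster tables. In subclusters 0, 3, 4 and 5 the share with Yap1 was 46.2%, 23.3%, 57.5% and 30.4% in control and 56.2%, 43.5%, 40.0% and 47.6% in the other library, above control in 3 of 4. The corresponding Wwtr1 shares were 81.4%, 93.3%, 80.0% and 100% against 90.6%, 91.3%, 60.0% and 85.7%, below control in 3 of 4. The second library is therefore called the library labelled depleted.

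S100a9 was in a smaller share of cells of the library labelled depleted in all 13 clusters that listed it, among them macrophages, B and T cells, dendritic cells and fibroblasts. S100a8 was in a smaller share in 9 of 11, whereas the other 7 genes had a median difference nearer 0. Of 162 possible listings of the 9 genes in the cluster tables, 76 were present, and cluster 4, a T cell cluster, listed none. Shares were lower by at least 10 points in 34 of these (44.7%) and higher in 5 (6.6%), with a median difference of -5.4 points. Over all 15431 listings of all genes, 38.6% were lower and 34.1% higher, with a median of 0.0. The pair supplied 21 of the 34, from 24 listings (87.5%, median -27.0 points). The 7 other genes were lower in 13 of 52 listings (25%) and higher in 5 (9.6%), with a median of -2.7 points. In 24 of those 52 listings, and in 1697 of all 15431, the gene was in at least 90% of cells of both libraries. Such shares leave little room for a difference, so the 25% cannot be read as less often lower than all genes. Without the coarse clusters 9, 10, 17 and 18, the pair was lower in 17 of 20 listings, and the 7 other genes were lower in 8 and higher in 1 of 40, while 32.1% of the 9098 listings of all genes left were lower and 34.5% higher. S100a9 was listed through the control library alone in 4 of its 13 clusters and S100a8 in 3 of 11, the share in the other library being under the 25% limit, so these had to be below control. Of the 52 listings of the 7 other genes, 7 came through control alone and also had to be below it. A further 1, S100a1 in cluster 18, came through the other library alone and had to be above control. The members were selected with these differences in view, so the counts describe them and support nothing further.

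**Figure D2:**
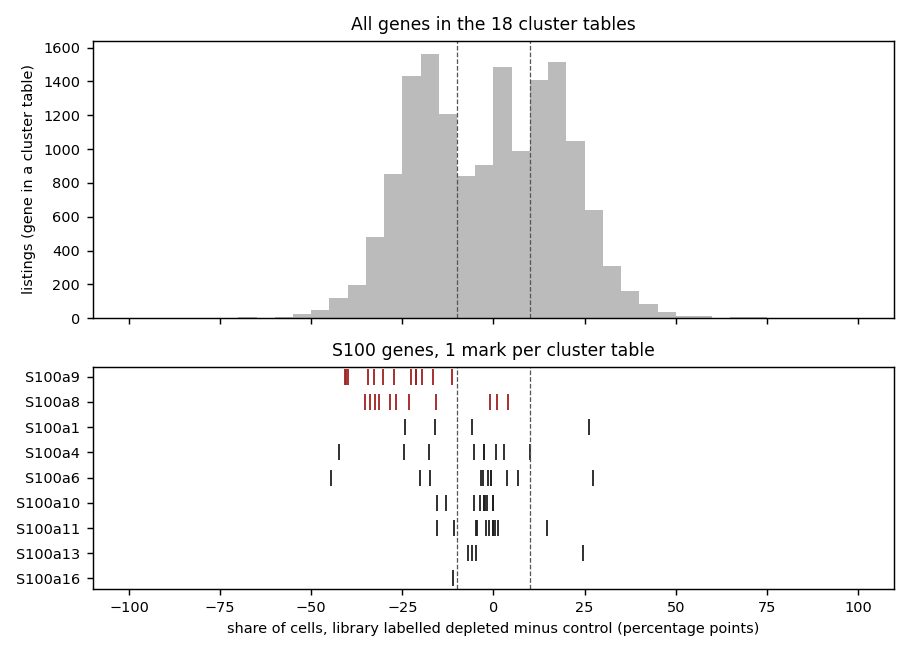
Difference in the share of cells (library labelled depleted minus control, percentage points, x axis) for all 15431 gene listings of the 18 cluster tables (upper panel, number of listings per 5 points) and for the 9 S100 genes (lower panel, 1 mark per table). Dashed lines stand at -10 and 10 points. All 13 marks of S100a9 and 8 of 11 marks of S100a8 lie left of the lower line, while most marks of S100a10 and S100a11 lie between the lines.

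S100a9 was listed in 13 of the 16 clusters not named neutrophils, and its share was lower in all 13, by between -11.3 and -40.7 points. In fibroblasts (cluster 5) it was in 49.7% of control cells and 9.1% of cells labelled depleted. Among macrophage and monocyte clusters, control shares were 54.8% in cluster 0, 57.1% in cluster 3, 63.9% in cluster 11, 63.5% in cluster 12 and 56.8% in cluster 13. Shares in the other library were, in the same order, 20.3%, 26.8%, 31.2%, 46.8% and 29.6%. B cells (cluster 2) had the highest share in control, 79.7%, and also the highest in the other library, 58.3%. T cells gave 67.7% against 46.5% in cluster 7, 50.9% against 39.6% in cluster 8 and 45.5% against 25.8% in cluster 10. Dendritic cells (cluster 17) gave 50% against 27.3%. The unnamed clusters 6 and 15 gave 59.3% against 18.6% and 62.5% against 22.7%.

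S100a8 was listed in 11 clusters outside the neutrophil clusters and was lower by at least 10 points in 8 of them. The fibroblast share was 32.6% in control and 5.9% in the library labelled depleted. Macrophage and monocyte clusters split: the shares were 68.3% against 34.3% in cluster 0, 52.1% against 23.8% in cluster 3 and 59.7% against 27.1% in cluster 11. Clusters 12 and 13 gave 47.9% against 51.9% and 51.6% against 50.7%, within 10 points, although S100a9 was lower in both. In T cells, cluster 7 gave 63.6% against 40.3% and cluster 8 gave 38.6% against 39.6%. The remaining clusters listing it, 9, 15 and 17, had 58.8% against 27.5%, 62.5% against 27.3% and 25% against 9.1%. Control and depleted shares of S100a8 overlapped across clusters, from 25% to 68.3% and from 5.9% to 51.9%. The neutrophil clusters 1 and 18 did not list either gene, so neutrophils themselves give no value for the pair.

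**Figure D3:**
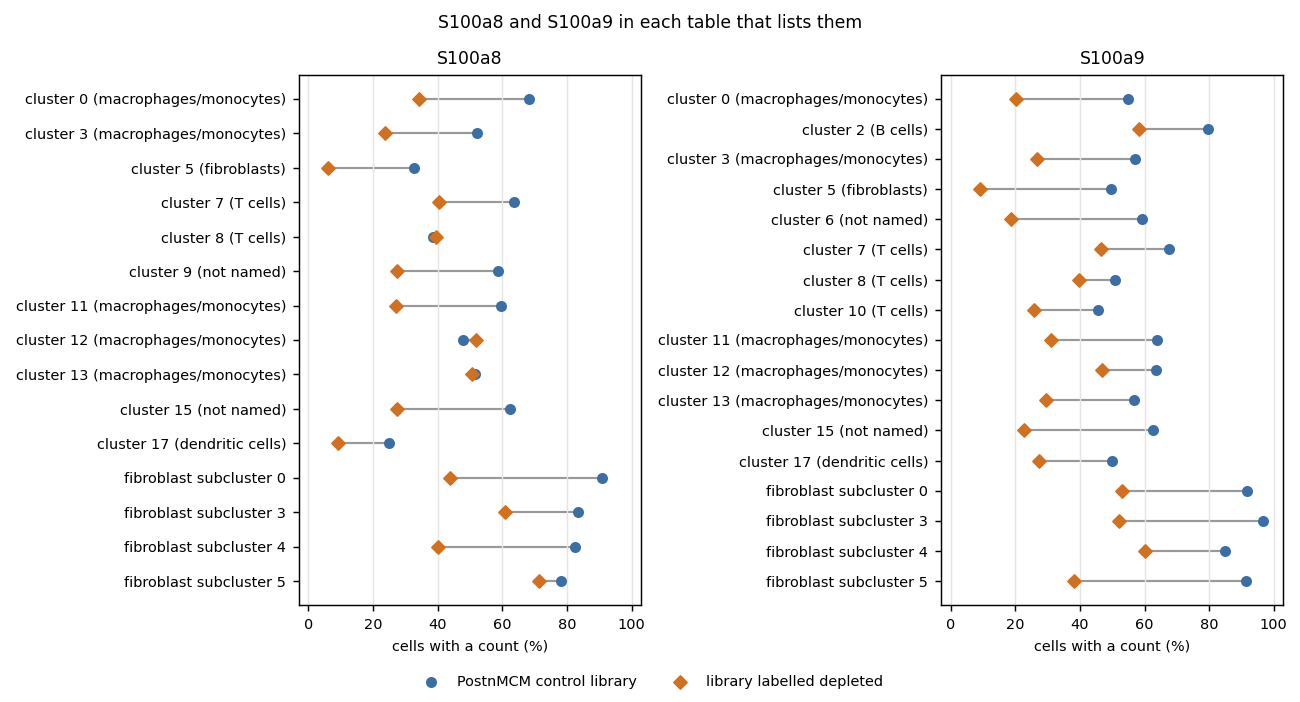
Percent of cells with a count (x axis) for S100a8 (left) and S100a9 (right) in each cluster or fibroblast subcluster that lists them (y axis). Circles are the control library, diamonds the library labelled depleted, with 1 library each and no error. S100a9 is below control in the library labelled depleted in all 17 rows, S100a8 in 13 of 15, and S100a8 is above control by 1.0 and 4.0 points in clusters 8 and 12.

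Both genes were also below control in every fibroblast subcluster, S100a8 in subcluster 5 by less than 10 points. At any size, 48.7%, 47.2%, 43.6% and 38.2% of all genes were below control in subclusters 0, 3, 4 and 5. The subclusters were normalized apart from the cluster tables, so levels cannot be set against those of cluster 5. S100a9 was in 91.7%, 96.7%, 85.0% and 91.3% of control cells of subclusters 0, 3, 4 and 5, and in 53.1%, 52.2%, 60.0% and 38.1% of cells labelled depleted. S100a8 was in 91.0%, 83.3%, 82.5% and 78.3% of control cells and in 43.8%, 60.9%, 40.0% and 71.4% of the others. The narrowest difference was that of S100a8 in subcluster 5, at -6.9 points. Of 10 fibroblast markers, Col1a1, Col1a2, Col3a1, Dcn and Fn1 were in 100% of cells of both libraries in all 4 subclusters. The other 5 varied, in subcluster 0 from Gsn (98.6% against 100%) through Pdgfra (38.6% against 71.9%), Lum (35.9% against 34.4%) and Postn (25.5% against 28.1%) to Tcf21 (2.1% against 0%).

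Other neutrophil transcripts moved with the pair in some tables and not in others. A list of 22 neutrophil genes was set beside it, and 20 of these were in the subcluster tables (all but Ly6g and BC100530). Their summed share was 349.6 in control and 127.8 in the library labelled depleted in subcluster 0, 303.5 and 160.5 in subcluster 3, 297.5 and 200 in subcluster 4, and 217.2 and 190.6 in subcluster 5. Of the 20 genes, 10, 7, 7 and 5 were lower by at least 10 points in subclusters 0, 3, 4 and 5, and 0, 0, 3 and 2 were higher. Over all genes of these subclusters, whatever their share, 9.9%, 17.1%, 20.3% and 14.3% were lower and 10.8%, 13.1%, 24.7% and 21.2% higher. Retnlg, a secreted neutrophil product, was in 35.9%, 26.7%, 40.0% and 21.7% of control cells against 3.1%, 4.3%, 0% and 4.8%. In control 0, 3, 0 and 6 genes of the list were at 0, and in the library labelled depleted 6, 8, 10 and 3, so that subcluster 5 had more of them at 0 in control. The smallest gaps between distinct shares were 0.6, 3.3, 2.5 and 4.3 points in control and 3.1, 4.3, 10 and 4.7 in the other library, and where gaps are wide a gene of few cells is more readily at 0. The granule gene Ngp was in 6.7% and 10% of control cells of subclusters 3 and 4 and at 0 in the other library, but in subcluster 5 it was at 0 in control and in 4.8% of the other cells. Among genes in more cells of the library labelled depleted, Il1b was in 22.5% against 50% and Pglyrp1, a bactericidal granule protein, in 15% against 40% of cells of subcluster 4, and G0s2 in 21.7% against 61.9% of subcluster 5.

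In the macrophage and monocyte cluster 11, 12 neutrophil genes were listed, with summed shares of 451.4 in control and 158.2 in the other library. Of these, 11 reached the 25% limit of the tables in control alone and so had to be below control, 44.2% of all genes of that table were lower, and nothing is read from their count. Pglyrp1 was in 46.5% against 16.7% there, and Cxcr2, the chemokine receptor of neutrophils, in 34.7% against 10.4%. In cluster 13, 8 were listed, 5 lower and 3 higher, while 25.9% of all genes listed there were lower and 41.7% higher. The fibroblast cluster 5 listed 0 of the 22, as did clusters 2, 6, 7, 8, 9, 10 and 15, in each of which S100a8 or S100a9 was lower. Clusters 4 and 14 also listed 0, and neither gene of the pair. An unlisted gene missed the limit on share or fold change and has no value there, so its absence does not mean equal shares. Transcripts of other blood and immune cells went in both directions in the fibroblast subclusters. The summed share of 5 erythroid genes was 98.5, 119.9, 97.5 and 60.7 in control and 12.4, 21.6, 0 and 0 in the other library, and that of 10 macrophage genes was 453.3, 416.6, 442.5 and 378.1 against 284.4, 365.0, 330.0 and 280.9. In contrast, 3 T cell genes found there (of a list of 5) summed to 24.1, 23.4, 22.5 and 13 in control against 31.2, 73.8, 70 and 71.5, above control in all 4 subclusters. The sum of 4 B cell genes was 11.8, 10, 15 and 21.6 against 15.6, 13, 20 and 9.6, above control in 3 of 4. Their medians were 1.8%, 1.6%, 3.8% and 4.3% against 0%, 2.2%, 0% and 2.4%, below control in subclusters 0, 4 and 5. Shares this near 0 give no direction for the B cell genes. Free RNA and cells joined in a droplet can place such transcripts in fibroblasts, and their part in the difference of S100a8 and S100a9 was not tested.

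**Figure D4:**
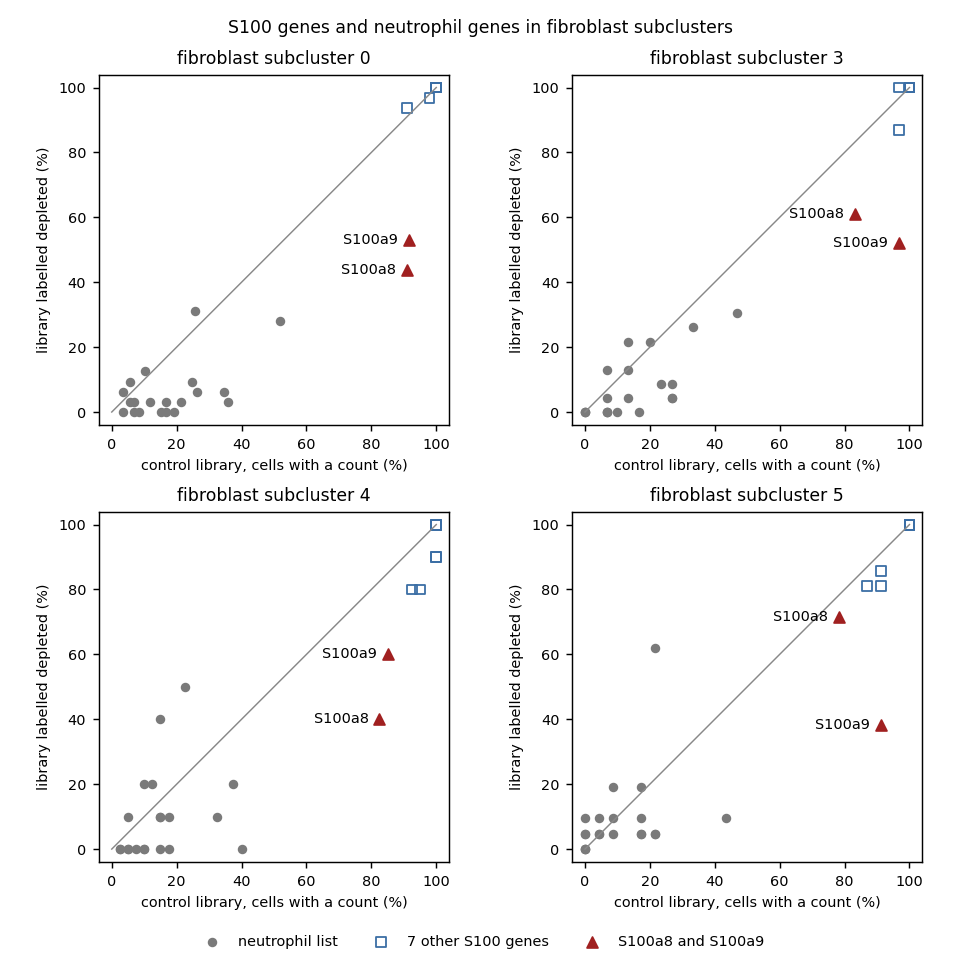
Percent of cells with a count in the control library (x axis) and in the library labelled depleted (y axis) for 20 neutrophil genes (grey), S100a8 and S100a9 (triangles) and the 7 other S100 genes (squares, some coinciding at 100%) in each fibroblast subcluster. The diagonal marks equal shares. S100a8 and S100a9 lie below it in all 4 panels, and the 7 other genes stay at 80.0% or more in both libraries.

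Among the other members, the annexin partners S100a10 and S100a11 were in most fibroblasts and macrophages of the clusters listing them. S100a10, which joins annexin A2 in a complex at the plasma membrane and does not need calcium for it, was listed in 11 clusters, lower by at least 10 points in 2 and within 10 points in 9, with none above control. Its share was 97.3% in control and 92.0% in the library labelled depleted in fibroblasts, and 96.9% against 94.6% in cluster 0. Dendritic cells (70% against 54.5%) and neutrophils of cluster 18 (36.4% against 23.5%) were the clusters where it was lower by at least 10 points, both coarse. Cluster 18 listed it through control alone, so it had to be below control there. In all 4 fibroblast subclusters S100a10 was in 100% of cells of both libraries.

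S100a11, a partner of annexin A1 in membrane traffic and repair, was listed in 12 clusters with a median difference of -0.6 points, or -1.6 points without the neutrophil clusters 1 and 18. It was in 100% of cells of both libraries in the neutrophil clusters 1 and 18 and in the macrophage cluster 13. T cells of cluster 8 gave 88.3% against 72.9% and macrophages of cluster 0 gave 95.8% against 85.0%, both lower. Cluster 9, unnamed and coarse, gave 70.6% against 85.2%, higher by 14.6 points. S100a11 was also in 100% of cells in every fibroblast subcluster of both libraries.

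S100a6, known as calcyclin, which binds the protein encoded by Cacybp, and S100a4, a regulator of non-muscle myosin and cell motility, had their widest differences in T cells of cluster 10 and in the unnamed cluster 15, respectively. S100a6 was listed in 11 clusters. T cells of cluster 10 carried it in 72.7% of control cells and 28.0% of the others, and clusters 9 and 6 gave 70.6% against 50.3% and 37.0% against 19.7%. Cluster 6 listed S100a6 through control alone, so it had to be below control there. Neutrophils of cluster 18 went the other way, from 72.7% to 100%. In fibroblasts S100a6 was in 98.0% and 94.7%, and in the fibroblast subclusters in 100% of both libraries.

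S100a4 was listed in 9 clusters, though not in the fibroblast cluster. Cluster 15 had the widest difference, 46.9% against 4.5%, followed by T cells of cluster 10 (45.5% against 21.0%) and by cluster 6 (29.6% against 11.8%). Each of these was listed through control alone, the other share being under the 25% limit, and so had to be below control. T cells of cluster 7 gave 90.9% against 85.5%. Natural killer cells (cluster 14) had 86.1% in control and 96.2% in the library labelled depleted, a difference of 10.1 points, and macrophages stayed above 90% in both. In the fibroblast subclusters 0, 3, 4 and 5, S100a4 was in 91.0%, 96.7%, 95.0% and 87.0% of control cells against 93.8%, 100%, 80.0% and 81.0%. It was thus above control in 2 and below it in 2 of the 4. Clusters 6, 9 and 10 were described as made up mostly of Yapfl/fl;Wwtr1fl/+;PostnMCM cells. Without these clusters the medians of S100a4 and S100a6 were -2.6 and -0.8 points.

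**Figure D5:**
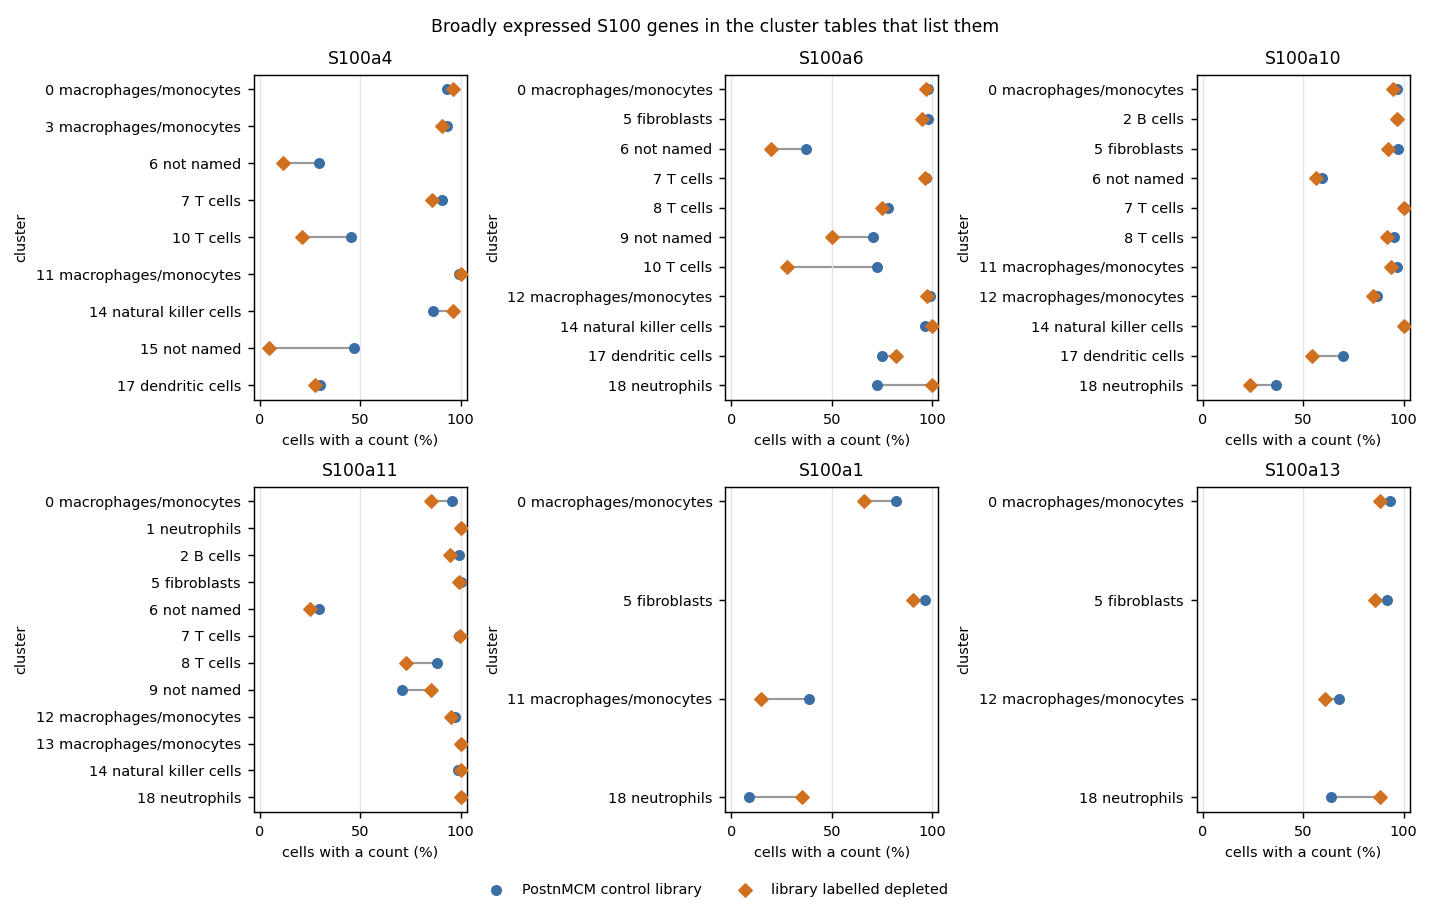
Percent of cells with a count (x axis) for S100a4, S100a6, S100a10, S100a11, S100a1 and S100a13 in each cluster table that lists them (y axis, cluster number and name). Circles are the control library and diamonds the library labelled depleted, 1 library each. In 24 of the 51 pairs both shares are at least 90%, and most of the wide gaps stand in clusters 6, 9, 10, 15, 17 and 18 and, for S100a1, in clusters 0 and 11.

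S100a1, S100a13 and S100a16 are neighbours at the proximal end of the group of genes. S100a1 is best known from striated muscle, where it acts on calcium release and uptake by the sarcoplasmic reticulum. It was in 82.2% of control cells and 66.2% of cells labelled depleted in macrophages of cluster 0, and in 38.9% against 14.6% in cluster 11. Fibroblasts gave 96.3% against 90.4%, and neutrophils of cluster 18 gave 9.1% against 35.3%, the only share above control among its 4 listings. Subclusters 0 and 3 had S100a1 in 100% of cells of both libraries, whereas subclusters 4 and 5 gave 100% against 90% and 91.3% against 81.0%.

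S100a13, which takes part in the release of Fgf1 and Il1a outside the classical secretory route, was listed in 4 clusters. The shares were 93.2% against 88.4% in cluster 0, 91.6% against 85.6% in fibroblasts and 67.7% against 60.8% in cluster 12, all below control by less than 10 points. In neutrophils of cluster 18 it was in 63.6% against 88.2%. S100a1 and S100a13 shared their direction in clusters 0, 5 and 18, where both were listed. In the fibroblast subclusters S100a13 was in 100% of cells of both libraries except in subcluster 4, at 100% against 90%.

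S100a16 was listed only in the fibroblast cluster, in 89.3% of control cells and 78.1% of cells labelled depleted. In the fibroblast subclusters its share was below control in all 4, by at least 10 points in subcluster 4 alone, at 97.9% against 96.9%, 96.7% against 87.0%, 92.5% against 80.0% and 91.3% against 85.7% in subclusters 0, 3, 4 and 5.

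By cell type, the fibroblast cluster listed 8 of the 9 genes (all but S100a4), of which 3 were lower (S100a8, S100a9 and S100a16) and 5 within 10 points. At any size all 8 were below control, as were 54.0% of all genes of that table. The 3 lower ones are 37.5% of the members, beside 31.6% lower and 34.5% higher among all genes of that table. Natural killer cells listed 4 genes, of which S100a4 was higher, S100a6 (96.2% against 100%) and S100a11 (98.7% against 100%) were within 10 points and S100a10 was in 100% of both. In cluster 18, S100a1, S100a6 and S100a13 were higher by 26.2, 27.3 and 24.6 points, S100a10 was lower and S100a11 equal, while 51.9% of all genes listed there were lower and 29.5% higher. The directions of S100a1 and S100a10 there were fixed by the 25% limit. Across the cluster tables, the percent of all listed genes that were lower ran from 12.7% to 54.6%.

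In the fibroblast subclusters all 9 members had values. A total of 2, 2, 6 and 2 members were lower by at least 10 points in subclusters 0, 3, 4 and 5, and 0 were higher in each. Among the genes that reached 25% of the cells in 1 library or the other, 13.9%, 23.3%, 24.8% and 21.5% were lower, and 16.8%, 18.2%, 33.5% and 29.7% were higher. S100a8 and S100a9 made up the lower members in subclusters 0 and 3, S100a1 and S100a9 in subcluster 5. In subcluster 4, S100a1, S100a4, S100a13 and S100a16 joined them, S100a1 and S100a13 at exactly -10 points, which equals the gap between its shares. Median differences of the members were 0.0, 0.0, -10 and -5.6 points, and those of the genes compared 0.3, 0.0, 2.5 and 0.2.

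Partners and receptors of S100 proteins were counted in the same way, from a list of 17 genes of which 15 were found. Over 40 cluster listings 12 were lower, 9 higher and 19 within 10 points, with a median of -1.4. In the subclusters 6 of 60 values were lower and 2 higher. Among all cluster listings 38.6% were lower and 34.1% higher. Over all genes of each subcluster, whatever their share, 9.9% to 20.3% were lower and 10.8% to 24.7% higher. The list holds genes in few cells, such as Ager, and genes at 100% in both libraries of every subcluster, such as Bsg. Both leave little room for a difference, so nothing is read from these counts. Anxa1, the annexin bound by S100a11, was lower in 3 and higher in 1 of 7 clusters, with 65.8% against 38.5% in natural killer cells and 75.0% against 90.9% in dendritic cells. Anxa2, the partner of S100a10, was lower by at least 10 points in 0 and higher in 2 of 5 clusters, and in 100% of cells of every fibroblast subcluster. Anxa11, another calcium-dependent membrane binder, was lower in both clusters listing it, from 100% to 58.8% in cluster 18 and from 35.0% to 9.1% in cluster 17. Anxa6 was lower in 2 and higher in 2 of 5 clusters, and Ahnak, a scaffold of the S100a10 complex, was lower in 0 and higher in 2 of 9. Fgf1 was in 82.8% against 65.6% of cells in subcluster 0 and 17.4% against 4.8% in subcluster 5, but in 36.7% against 43.5% in subcluster 3 and 15% against 20% in subcluster 4. Of the receptors of calprotectin, Tlr4 was listed in cluster 13, at 34.7% against 54.9%, and was in 21.7% to 42.9% of cells in the fibroblast subclusters of either library. Bsg was lower in T cells of cluster 10, at 90.9% against 79.0%, and in 100% of cells of both libraries in all 4 subclusters, and Ager was in at most 13%.

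Other members of the family were in few tables. Of 10 other genes named S100, 3 were found, in the subcluster tables alone: S100a3 in 3.4% to 10% of control cells, S100b in 6.7% to 17.4%, and S100pbp, which encodes a binding protein and not a member of the family, in 30.4% to 55.0%.

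For the members listed in at least 10 clusters, the genes closest in control share were looked up, likeness being the mean absolute difference over the clusters listing both. S100a9 was closest to Mndal, an interferon-inducible gene (6.8 points over 11 clusters), then to Ocel1 (9.0 over 10) and S100a8 (10.2 over 10), among 29 genes compared. Mndal was higher in the library labelled depleted in 7 of its 11 clusters and Ocel1 lower in 10 of 10. S100a8 was closest to S100a9, then to Rpl27a-ps4 (14.5 over 11) and Gm15682 (15 over 11), both of them higher in 11 of 11. S100a10 was close to Gm15501 (9.4 points) and Rps3a1 (10.1), S100a11 to LOC118568312 (10.2), Rps25 (11) and Ftl1 (11), and S100a6 to LOC118568312 (18.1), Ftl1 (18.7) and Gm15501 (20.2). These are likenesses over clusters of a single library, and their points share its depth.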

How the data were processed

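The authors processed 2 single-cell libraries with Cell Ranger 6.1.1 against GRCm39 with added reporter sequences, then with Seurat: filtering, SCTransform normalization with the mitochondrial share regressed out, clustering, and a second pass for fibroblasts. No doublet caller is named in the sources used here. The deposited fraction of cells with a corrected count above 0, per gene, cluster and library, is the only value used, printed as a percent. The deposited average log2 fold changes and Wilcoxon p-values, computed over cells, are the authors' own comparisons and were not used. Groups follow the labels, and all members are named, other genes by list, by count of clusters past 10 points, or by nearest control share. Members and lists were chosen with earlier results of these data known. Differences were counted at 10 percentage points with Python 3.11.15 and pandas 2.3.3, on code tested on simulated data. Alternatives used 5 or 20 points, a log2 ratio of 0.5 of shares or of Poisson means (-ln(1 - share), shares capped at 0.9995), fewer clusters, or centring on the subcluster median. Cluster 16 and subclusters 1 and 2 were not analysed here. The labels place collection 6 days after infarction, whereas the study's methods name a later day. A gene that the rule on nearest control share selects is not reported here.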

Additional observations from a re-analysis of the deposited data

Results flagged for a closer look

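Of the members, 5 had shares lower by at least 10 percentage points in some tables and higher in others, and the values at either end are given here, library labelled depleted minus control. None of these differences between clusters was tested, as a genotype is represented by a single library. S100a1 stood at -24.3 points in macrophages and monocytes of cluster 11 and at 26.2 points in neutrophils of cluster 18. Cluster 11 listed it through control alone and cluster 18 through the other library alone, so the 25% limit fixed both directions. S100a4 stood at -42.4 points in the unnamed cluster 15 and at 10.1 points in natural killer cells (cluster 14). Cluster 15 listed it through control alone, so it had to be below control there. S100a6 stood at -44.7 points in T cells of cluster 10 and at 27.3 points in cluster 18. S100a11 stood at -15.4 points in T cells of cluster 8 and at 14.6 points in the unnamed cluster 9. S100a13 stood at -10 points in fibroblast subcluster 4 and at 24.6 points in cluster 18, values that come from separate normalizations. Clusters 9, 10 and 18 and subcluster 4 are among those with coarse shares.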

How the results depend on the processing

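No paired analysis was possible because a genotype is represented by a single library. The cause of each move below was not tested. Of 62 alternative counts, 49 stayed within 1.5 times of the reported count. At 20 points, lower listings went from 34 to 22 and higher ones from 5 to 3, and members lower in subclusters 4 and 5 went from 6 to 2 and from 2 to 1. At 5 points, 5 members were lower in subcluster 5. By the log2 ratio of shares, 1 listing was higher, and lower members numbered 1, 2 and 1 in subclusters 3, 4 and 5. By the log2 ratio of Poisson means, 8 listings were higher, and 1 member (S100a4) was higher in subcluster 3. Without the neutrophil clusters 2 listings were higher, and without clusters 9, 10, 17 and 18, an alternative chosen after seeing the data, 1. Of 27 alternative medians of single members, 0 changed sign and 15 moved, by over 1.5 times for S100a11 (from -0.6 to -1.6 points without the neutrophil clusters, and also without clusters 9, 10, 17 and 18) and for S100a6 (from -1.5 to -0.8 without clusters 6, 9 and 10). The number of cells behind each share was not analysed here, and coarse shares limit clusters 9, 10, 17 and 18 and subcluster 4 the most.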

Other observations

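The summed share of 2 natural killer cell genes (of a list of 5) in fibroblast subclusters 0, 3, 4 and 5 was 15.8, 20, 20 and 21.7 in control against 3.1, 4.3, 0 and 0 in the library labelled depleted. Dendritic cell and cardiomyocyte genes were sparse, with medians of 4.8% or less in either library. The fibroblast list held similar sums in both libraries, 700.7 against 734.4 in subcluster 0 and 917.5 against 962.0 in subcluster 5, although Postn, the gene whose locus drives the Cre, was in 40.0% against 13% of cells of subcluster 3 and in 87.0% against 100% of subcluster 5.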
